A study of Mus musculus with 3 samples.

Results

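Bone matrix, osteocyte and osteoclast genes were examined in muscle RNA of mice that swam, swam on food with Chlorella, or did neither. The 10 genes were Mepe, Ibsp and Bglap (bone matrix), Dmp1, Phex and Sost (osteocytes), Sp7 (an osteoblast transcription factor), Ctsk and Acp5 (osteoclasts) and Mmp13 (a collagenase). They were found by their gene name in the scanner files, where Bglap is written Bglap1, and 11 probes matched: 2 for Sost and 1 for each of the other genes. These 10 genes are part of the 27665 genes that the arrays represent. They were chosen with the levels on these same arrays in view, so their values are a description and carry no test.

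The mice were 6-week-old males, and neither their strain nor the muscle sampled is named in the labels. The first group ate normal food and did not swim, the second ate normal food and swam, and the third swam and ate food holding 0.5% powder of Chlorella, a unicellular green alga. After 14 days RNA of 10 mice was pooled per group and hybridised to 1 single-colour Agilent array, so each group has 1 array, no value has a replicate and no p-value can be given. Each ± beside a log2 ratio combines the errors that the scanner software gave for both spots. It leaves out any variation between mice.

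Bone is built by osteoblasts, which secrete collagen and then mineral-binding proteins, among them the acidic phosphoproteins Ibsp, Mepe, Dmp1 and osteopontin (Spp1), whose genes lie in 1 cluster, and osteocalcin, the product of Bglap. Osteocytes are osteoblasts buried in that matrix, and they make Dmp1, Phex and Sost, which regulate phosphate handling, mineral and bone formation. Osteoclasts resorb bone with the protease cathepsin K (Ctsk) and mark themselves with tartrate-resistant acid phosphatase (Acp5). Osteocalcin, Ibsp and Mepe are known as products of bone rather than of muscle fibres.

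The label of the tissue held. All 16 listed skeletal muscle genes, such as Acta1 (skeletal actin), Ckm (muscle creatine kinase) and Myh4 (a fast myosin), were well above background on every array, and their summed scaled signal was 7030 on the nonswimming, 6000 on the swimming and 7850 on the Chlorella array. Scaled signal means the processed signal divided by the array's 75th percentile, which was 285.9, 295.0 and 237.8 intensity units in this order. Within the muscle list, Myh7 was higher on the swimming (1.69 ± 0.20) and Chlorella (1.66 ± 0.20) arrays than on the nonswimming array, in log2 ratios. Mb was lower in swimming over nonswimming (-1.04 ± 0.20). The muscle sampled is not named, and a difference in muscle between the pools was not tested. The swimming array stood apart in marrow genes. The 12 measured granulocyte genes (such as Mpo, myeloperoxidase, and Camp, cathelicidin) summed to 16.7, 282 and 3.58 in scaled signal on the nonswimming, swimming and Chlorella arrays, and 11, 12 and 9 of them were well above background. The 10 B cell precursor genes summed to 1.02, 6.74 and 0.842, the 10 erythroid genes to 8.45, 20.9 and 6.31, and the 7 megakaryocyte and platelet genes to 4.91, 11.2 and 3.41. These sums move in the same order as most bone genes below, and their part in the results was not tested. Bright genes such as S100a9, Alas2, Tfrc and Pf4 weigh most in the sums. Median log2 ratios of swimming over nonswimming, over genes well above background on both, were 3.71 for granulocyte and 2.93 for B cell precursor genes. They were 3.43 for erythroid and 2.50 for megakaryocyte and platelet genes. In pooled bulk RNA, fewer cells of a type and less RNA per cell cannot be told apart.

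**Figure D1:**
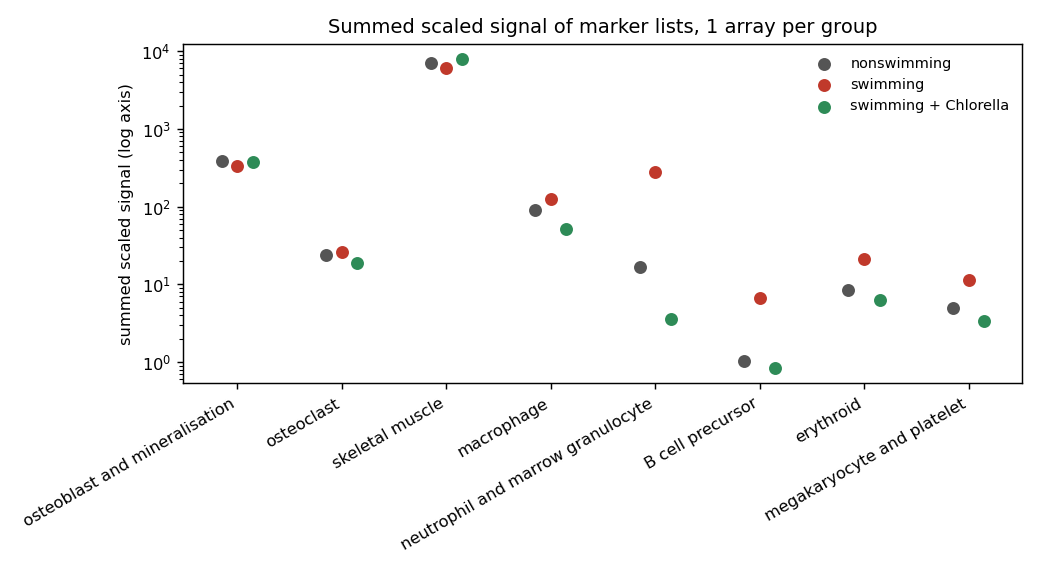
Summed scaled signal (processed signal over the array's 75th percentile, log axis) of 8 marker lists on the nonswimming, swimming and Chlorella arrays, 1 point per array. The 4 marrow cell lists are highest on the swimming array, with granulocyte genes at 282 against 16.7 and 3.58, while muscle genes lie between 6000 and 7850.

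The promoters of Mepe, Ibsp, Bglap and Mmp13 are shown. The first 3 had the largest ratios of the 9 genes measured in Chlorella over swimming. Mmp13 was lower on the Chlorella array without a 2-fold difference between the other arrays. Each runs from 250 bases before to 50 after the annotated start site, 5′ to 3′ on the gene's strand, from RefSeq on build GRCm38.p6. Capitals mark matches on either strand to ACCACA (the core bound by Runx factors, which include Runx2, the master regulator of osteoblasts), TGANTCA (AP-1), TATAAA (the TATA box) and TAATTA (homeodomain factors). No matches overlapped.
Mepe, chr5:104325079-104325378, plus strand: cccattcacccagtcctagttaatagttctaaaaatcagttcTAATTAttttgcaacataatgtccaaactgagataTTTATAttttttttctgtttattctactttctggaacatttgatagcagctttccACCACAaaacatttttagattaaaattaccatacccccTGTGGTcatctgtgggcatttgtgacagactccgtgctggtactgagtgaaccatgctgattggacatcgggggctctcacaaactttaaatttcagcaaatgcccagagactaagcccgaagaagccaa
Ibsp, chr5:104299037-104299336, plus strand: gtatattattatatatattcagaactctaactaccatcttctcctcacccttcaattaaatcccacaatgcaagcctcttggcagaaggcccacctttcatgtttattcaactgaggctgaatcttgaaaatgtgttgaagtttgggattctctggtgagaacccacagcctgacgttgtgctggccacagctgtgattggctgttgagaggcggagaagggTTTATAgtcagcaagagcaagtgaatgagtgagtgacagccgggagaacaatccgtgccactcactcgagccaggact
Bglap, chr3:88384417-88384716, minus strand: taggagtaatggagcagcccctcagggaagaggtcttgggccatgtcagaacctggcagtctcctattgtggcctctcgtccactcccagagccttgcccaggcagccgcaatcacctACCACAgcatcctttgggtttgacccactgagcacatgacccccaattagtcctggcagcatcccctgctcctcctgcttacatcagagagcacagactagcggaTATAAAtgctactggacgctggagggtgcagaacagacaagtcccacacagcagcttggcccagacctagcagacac
Mmp13, chr9:7272264-7272563, plus strand: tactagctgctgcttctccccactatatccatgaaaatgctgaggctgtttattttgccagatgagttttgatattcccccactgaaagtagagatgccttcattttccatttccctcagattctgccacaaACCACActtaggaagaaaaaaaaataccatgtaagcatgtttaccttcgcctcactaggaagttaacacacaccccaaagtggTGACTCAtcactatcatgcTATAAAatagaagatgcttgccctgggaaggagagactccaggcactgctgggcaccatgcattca

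The Bglap promoter held 1 Runx core at position -132 from the start site and a TATA box at -27. The Mepe promoter held Runx cores at -118 and -80, a reversed TATA match at -173 and a homeodomain match at -208. The Ibsp promoter held a reversed TATA match at -28 and no Runx core in this window. The Mmp13 promoter held a Runx core at -118, the AP-1 match TGACTCA at -35 and a TATA box at -16. Of the 10 genes, 9 had a promoter in the RefSeq table, and Sp7 did not. With the outermost start site of each gene, 3 of 9 promoters held the Runx core, against 16.8% of 32851 promoters, 4 of 9 held TATAAA against 13.6%, 1 of 9 TGANTCA against 7.81% and 1 of 9 TAATTA against 5.29%. These matches describe letters and are not evidence of binding.

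Among the 8 genes well above background on all 3 arrays, the bone matrix genes had the widest swings. Mepe encodes matrix extracellular phosphoglycoprotein, a regulator of mineralisation made by osteocytes and late osteoblasts. Its processed signal was 81.2 on the nonswimming, 400.0 on the swimming and 25.3 on the Chlorella array. The swimming array was thus the highest and the Chlorella array the lowest. After scaling, the log2 ratio of swimming over nonswimming was 2.26 ± 0.21, a 4.78-fold difference, and that of Chlorella over swimming was -3.67 ± 0.22, a 12.8-fold difference. Among the 15508 genes measured on these 2 arrays, 29 had a lower ratio than Mepe. The Chlorella array was also below the nonswimming array, at -1.42 ± 0.22 (2.67-fold). With normexp, a background correction that adds an offset of 50 to each signal, the ratios of Mepe were 1.62, -2.14 and -0.52, so the last fell short of 2-fold. Ibsp encodes bone sialoprotein, which nucleates hydroxyapatite crystals and binds cells, and its signals were 158.7, 430.8 and 27.4 in the same order. Its ratios were 1.40 ± 0.20 for swimming over nonswimming (2.63-fold) and -3.66 ± 0.21 for Chlorella over swimming (12.7-fold), the latter -2.40 with normexp. Against the nonswimming array the Chlorella array was 4.82-fold lower in Ibsp, with a log2 ratio of -2.27 ± 0.21, and 16 of 15336 genes lay below it. With normexp that ratio was -1.24.

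Bglap, the osteocalcin gene and the most specific product of mature osteoblasts, had signals of 857.5, 4056 and 354.6 on the nonswimming, swimming and Chlorella arrays. The ratio of swimming over nonswimming was 2.20 ± 0.20 (4.58-fold), that of Chlorella over swimming -3.20 ± 0.20 (9.22-fold) and that of Chlorella over nonswimming -1.01 ± 0.20 (2.01-fold), which lies at the 2-fold line. Bglap has near-identical copies beside it, Bglap2 and Bglap3. The probe may not separate these copies, so its values are uncertain as to which copy they come from, and no probe was named Bglap2. A probe of Bglap3 had signals of 492.2, 2381 and 229.0 and ratios of 2.23 ± 0.20 and -3.07 ± 0.20 for swimming over nonswimming and Chlorella over swimming. The flanking genes Paqr6 and Pmf1 had ratios of -0.01 and 0.10 for swimming over nonswimming and of 0.15 and 0.15 for Chlorella over swimming.

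**Figure D2:**
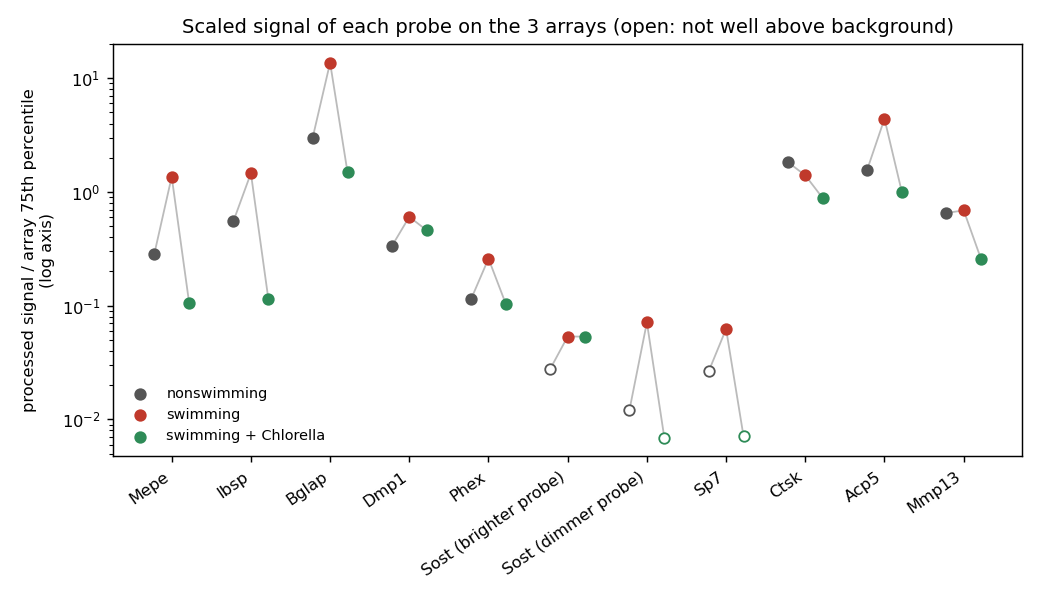
Processed signal divided by the array's 75th percentile (log axis) for the 11 probes on the nonswimming, swimming and Chlorella arrays, 1 point per array; open points were not well above background, and levels of different probes are not comparable. Mepe, Ibsp, Bglap, Dmp1, Phex and Acp5 peak on the swimming array, as do Sp7 and the dimmer Sost probe, whose other points are open. Mmp13 is lower only on the Chlorella array, and Ctsk steps down from 1.83 to 1.40 and 0.883.

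In the chromosomal order of RefSeq genes, Ibsp and Mepe are neighbours in the cluster of phosphoprotein genes, between Dmp1 and Spp1. Spp1 encodes osteopontin, a matrix phosphoprotein also made by macrophages. Its signals were 1614, 5175 and 760.7, with ratios of 1.64 ± 0.20 for swimming over nonswimming and -2.46 ± 0.20 for Chlorella over swimming. Thus Ibsp, Mepe and Spp1 differed by more than 2-fold in both comparisons. Dmp1, the next gene on the other side, differed by less than 2-fold in both. Dspp, the dentin gene of the cluster, was not well above background on any array, with signals of 1.71, 1.496 and 1.52. The genes that flank the cluster had small ratios: Sparcl1 had -0.27 ± 0.20 and 0.33 ± 0.20, and Pkd2 had -0.17 ± 0.20 and 0.38 ± 0.20 for swimming over nonswimming and Chlorella over swimming.

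**Figure D3:**
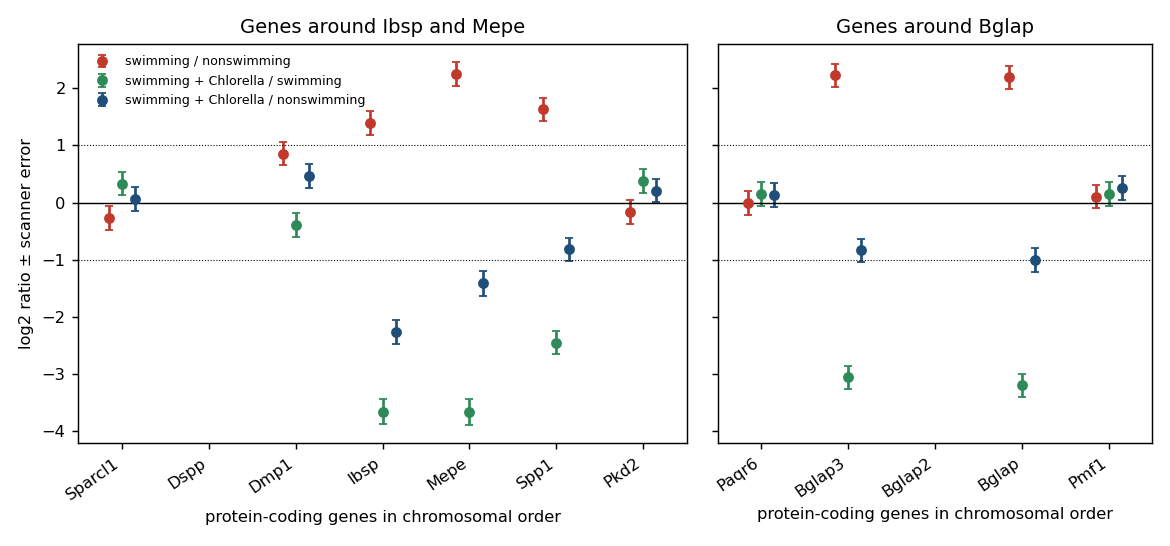
Log2 ratios with the scanner error (bars) for protein-coding genes in chromosomal order around Ibsp and Mepe (left) and around Bglap (right), in the 3 comparisons; a gene without points was not well above background or has no probe. Ibsp, Mepe, Spp1, Bglap3 and Bglap lie beyond the dotted 2-fold lines in swimming over nonswimming and in Chlorella over swimming, while the flanking Sparcl1, Pkd2, Paqr6 and Pmf1 stay between -0.27 and 0.38.

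Dmp1 and Phex had smaller ratios than Mepe, Ibsp and Bglap in swimming over nonswimming and in Chlorella over swimming. Dmp1, dentin matrix protein, which osteocytes use to mineralise matrix and to restrain the phosphate hormone Fgf23, had signals of 95.4, 178.1 and 109.3. Its ratios were 0.86 ± 0.21 for swimming over nonswimming, -0.39 ± 0.21 for Chlorella over swimming and 0.46 ± 0.21 for Chlorella over nonswimming. Among the 8 genes well above background on both the Chlorella and nonswimming arrays, Dmp1 was higher on the Chlorella array and the other 7 were lower. Phex encodes an osteocyte endopeptidase whose loss causes X-linked hypophosphataemia. Its signals of 32.5, 76.4 and 24.4 gave ratios of 1.19 ± 0.22, -1.34 ± 0.22 and -0.15 ± 0.23 in these 3 comparisons. With normexp the first 2 of these were 0.52 and -0.45, so the calls of Phex ended, and the third was 0.07.

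Sost encodes sclerostin, the osteocyte inhibitor of Wnt signalling. Both its probes were dim. The brighter probe had signals of 7.94, 15.8 and 12.7 and was not well above background on the nonswimming array, so the swimming array was at least 1.93-fold and the Chlorella array at least 1.92-fold higher than it. Between the Chlorella and swimming arrays its ratio was -0.002 ± 0.33, with a sign that turned to 0.13 with quantile normalization and with median centring and to 0.20 with normexp. The other probe had signals of 3.46, 21.0 and 1.64, and was well above background on the swimming array alone. By its bound that array was at least 3.16-fold higher than the nonswimming array and at least 2.71-fold higher than the Chlorella array. The 2 probes therefore disagree about the Chlorella array.

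Sp7 encodes osterix, the zinc finger factor that acts after Runx2 in osteoblast differentiation. Its signals were 7.54, 18.4 and 1.69, well above background on the swimming array only, which was at least 2.36-fold higher than the nonswimming array and at least 2.37-fold higher than the Chlorella array. Runx2 itself had signals of 13.8, 29.5 and 12.2 and ratios of 1.05 ± 0.27 and -0.96 ± 0.27 for swimming over nonswimming and Chlorella over swimming.

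The osteoclast genes and Mmp13 did not share 1 pattern. Acp5 had signals of 444.9, 1297 and 236.3, with ratios of 1.4985 ± 0.20 for swimming over nonswimming (2.83-fold), -2.15 ± 0.20 for Chlorella over swimming (4.42-fold) and -0.65 ± 0.20 for Chlorella over nonswimming. Its order over the arrays was that of Mepe, Ibsp and Bglap. Ctsk had signals of 524.2, 412.7 and 210.0, and here the nonswimming array was the highest. Its ratios were -0.39 ± 0.20, -0.66 ± 0.20 and -1.05 ± 0.20 in the same order of comparisons. Mmp13, the collagenase of hypertrophic cartilage and osteoblasts, had signals of 186.5, 203.3 and 61.0. The swimming and nonswimming arrays differed in Mmp13 by less than the scanner error, at 0.08 ± 0.20, and at -0.07 with median centring. The Chlorella array was lower than both, by -1.43 ± 0.21 against swimming and -1.35 ± 0.21 against nonswimming, and with normexp these ratios were -0.86 and -0.79. Acp5 and Ctsk are also made by macrophages. Of 15 macrophage genes, 1 was at least 2-fold higher on the swimming than on the nonswimming array, against 5.14% of all genes. Their median was 0.03. On the Chlorella array 5 were at least 2-fold lower than on the swimming array, against 4.86% of all genes, with a median of -0.86. Their summed scaled signal was 91.5, 127 and 51.1, most of it from Lyz2, with processed signals of 21070, 32080 and 9495. The part of macrophage genes in the values of Acp5 and Ctsk was not tested.

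**Figure D4:**
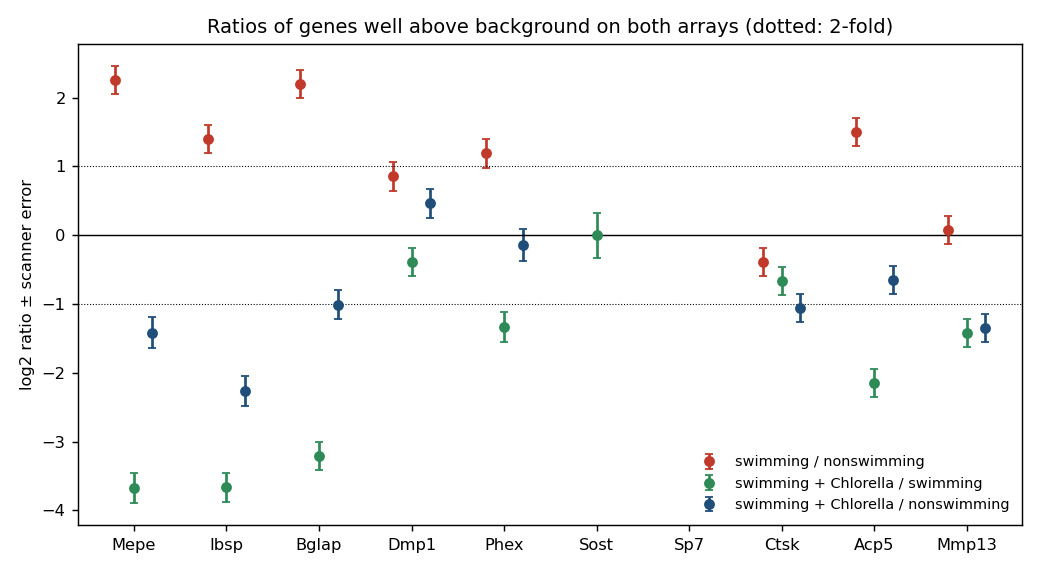
Log2 ratios of the 10 genes in the 3 comparisons, with bars for the scanner error and dotted lines at 2-fold; points are missing where a gene was not well above background on both arrays, as for Sp7. The red points of Mepe and Bglap lie above 2, the green points of Mepe, Ibsp and Bglap below -3, and Ctsk has all 3 points below 0.

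Counted over the 10 genes, 8 were measured on both arrays of swimming against nonswimming, and a 2-fold or larger ratio was reached by 5 upward and by 0 downward, where 5.14% of 15661 genes reached it upward and 1.07% downward. Their median log2 ratio was 1.29, against -0.04 over all genes, and with Sost and Sp7 at their bounds it was 1.21. For Chlorella against swimming, 9 were measured, 6 reached it downward and 0 upward, where 4.86% of 15508 genes did downward and 1.37% upward, and the median was -1.43 against 0.08 over all genes. For Chlorella against nonswimming, 8 were measured, 5 reached it downward and 0 upward, where 1.49% of 15336 genes did downward and 2.07% upward, with a median of -1.03 against 0.04. The rule for choosing these genes drew on these contrasts, so nothing is read from the counts against the shares, and the last comparison shares its arrays with the others. The 5 genes in this last comparison, which does not use the swimming array, were Mepe, Ibsp, Bglap, Ctsk and Mmp13. Granulocyte genes were lower in it too, by at least 2-fold for 7 of 9 and with a median of -2.99. Of 15 macrophage genes, 2 were at least 2-fold lower in it, with a median of -0.76. The part of both lists in the result was not tested. Of the 5 bone genes, the call of each but Ibsp ended with normexp, where 1 of 8 members was at least 2-fold lower.

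Most other genes of bone differed by less than 2-fold. Over all genes, 5.14% passed 2-fold upward and 1.07% downward in swimming over nonswimming. Downward, 4.86% passed it in Chlorella over swimming and 1.49% in Chlorella over nonswimming. These shares are the background for the list counts here and below. Of 19 measured osteoblast and mineralisation genes, 4 passed 2-fold upward in swimming over nonswimming: Bglap3, Spp1, Runx2 and Pth1r, the parathyroid hormone receptor (1.43 ± 0.20). The median of the list was -0.05, against -0.04 over all genes. On the Chlorella array 4 of 19 were at least 2-fold lower than on the swimming array, namely Bglap3, Spp1, Pth1r (-1.33 ± 0.20) and Omd, the keratan sulphate proteoglycan osteomodulin (-1.17 ± 0.21), with a list median of -0.04. The abundant matrix genes Col1a1, Col1a2 and Sparc, which fibroblasts make too, had ratios between -0.37 and -0.12 for swimming over nonswimming and between 0.23 and 0.41 for Chlorella over swimming. Alpl, tissue-nonspecific alkaline phosphatase, had ratios of -0.41 ± 0.20 and 0.37 ± 0.20. Chlorella over nonswimming passed 2-fold downward for 1 of 19, Smpd3, a sphingomyelinase needed for bone mineral (-1.17 ± 0.20).

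Swimming over nonswimming passed 2-fold upward for 2 of 9 osteocyte genes: Dkk1, a secreted Wnt inhibitor (1.63 ± 0.27), and Tnfrsf11b, osteoprotegerin, the decoy receptor that restrains osteoclasts (1.11 ± 0.22). On the Chlorella array Tnfrsf11b was lower than on the swimming array by -1.80 ± 0.24, the only 1 of 8 by that size, and Dkk1 was at least 5.46-fold lower, with signals of 13.2, 42.4 and 1.38. Fgf23, the phosphate hormone of osteocytes, ran the other way. Its signals were 34.5, 6.90 and 27.6, and it was not well above background on the swimming array, which was at least 5.16-fold lower than the nonswimming array and at least 4.95-fold lower than the Chlorella array. Lrp4, a sclerostin-binding receptor that muscle uses at the neuromuscular junction, was higher on the Chlorella than on the nonswimming array (1.23 ± 0.21).

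Swimming over nonswimming passed 2-fold upward for 3 of 15 osteoclast genes: Mmp9, gelatinase B (1.66 ± 0.21), Car2, carbonic anhydrase (1.45 ± 0.20), and Itgb3, an integrin subunit (1.33 ± 0.20). The same 3 were at least 2-fold lower on the Chlorella than on the swimming array, at -2.96 ± 0.23, -1.62 ± 0.20 and -1.87 ± 0.20. Neutrophils, red cell precursors and platelets are known to express these 3 genes as well. The other osteoclast genes were mixed. Tnfrsf11a, the RANK receptor, had ratios of 0.04 ± 0.23 and -0.24 ± 0.24, and Oscar had -0.11 ± 0.27 and -0.24 ± 0.31. Snx10 (0.97 ± 0.20 and -0.91 ± 0.20) and Tcirg1 (0.62 ± 0.21 and -0.72 ± 0.21) were highest on the swimming array, short of 2-fold. Ostm1 (-0.52 ± 0.20 and -0.21 ± 0.20) and Ocstamp (-0.41 ± 0.21 and -0.03 ± 0.21) were below 0 in both comparisons. Dcstamp and Atp6v0d2, needed for osteoclast fusion, were not well above background on any array. Tnfsf11, which encodes RANKL, was not well above background either. The medians of the list were -0.04 and -0.21.

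Of 12 cartilage genes measured on both arrays, 0 passed 2-fold upward in swimming over nonswimming and 1 downward, Col9a1 (-1.26 ± 0.22). By their bounds Ihh, the hedgehog signal of growth cartilage, was at least 2.39-fold higher in this comparison, and Matn3, a matrilin, was at least 3.54-fold lower. Chlorella over nonswimming passed 2-fold downward for 5 of 9, with a list median of -1.11. They were Col9a3 (-3.08 ± 0.34) and Col9a1 (-2.08 ± 0.27), chains of collagen IX, Ucma, a matrix protein of growth cartilage (-2.41 ± 0.28), Col2a1, the main cartilage collagen (-1.63 ± 0.20), and Acan, aggrecan (-1.11 ± 0.23). Hapln1, the link protein, and Cnmd, chondromodulin, were at least 4.46-fold and 4.87-fold lower by their bounds, and Col10a1, the collagen of hypertrophic cartilage, and Matn3 at least 3.23-fold and 2.63-fold. Ucma, Col9a3, Col2a1 and Acan were also at least 2-fold lower on the Chlorella than on the swimming array, while Sox9, the cartilage transcription factor, was higher there (1.01 ± 0.21). The Chlorella signals of Col9a3 (6.95), Ucma (10.6), Col9a1 (11.5) and Acan (18.8) were dim. The lowest signal well above background on that array was 6.263. Col2a1 was brighter, at 250.7. How the ratios of these cartilage genes change with normexp, which compresses dim signals, was not tested. In swimming over nonswimming Hapln1 and Cnmd had ratios of 0.11 ± 0.22 and 0.12 ± 0.22. The 12 cartilage genes ran from -1.26 for Col9a1 to 0.95 for Ucma there, with a median of 0.09. In the tendon list the ratios of swimming over nonswimming ran from -1.37 ± 0.20 for Tnmd, tenomodulin, to 1.38 ± 0.20 for Egr1, a transcription factor, with a median of -0.66 over 8 genes. Between the Chlorella and swimming arrays the tendon median was 0.13, with Egr1 at -1.02 ± 0.20.

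**Figure D5:**
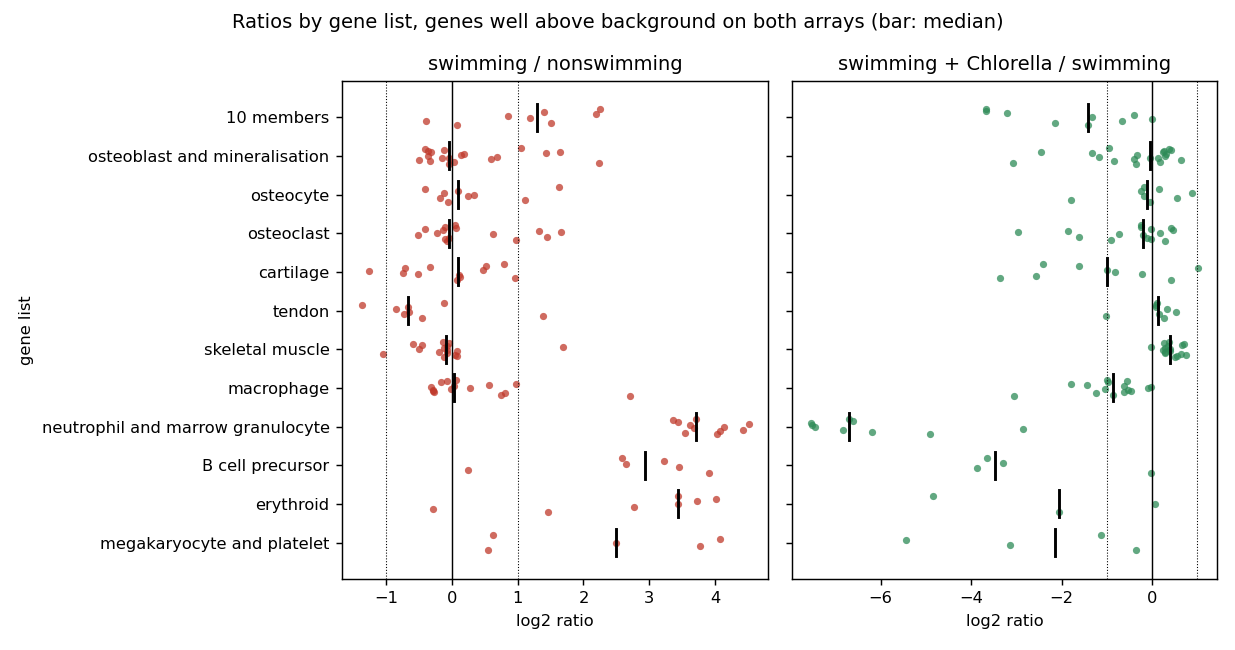
Log2 ratios of genes well above background on both arrays, by gene list, for swimming over nonswimming (left) and Chlorella over swimming (right), with 1 point per gene, a bar at the median and dotted lines at 2-fold; both panels use the swimming array. The 10 genes have medians of 1.29 and -1.43, the other osteoblast genes -0.05 and -0.04, and granulocyte genes 3.71 and -6.70.

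Of 13312 other genes well above background on all 3 arrays, the 8 nearest to the members' median pair of ratios (1.29 for swimming over nonswimming, -1.79 for Chlorella over swimming, over 8 members and 3 arrays) were Sla, Fhdc1, Rsad2, Psrc1, Itgb3, Orm1, Adgrg3 and Hvcn1. Their distances were 0.07 to 0.13 on the log2 scale. Sla is a signalling adaptor of blood cells, Rsad2 an interferon-induced antiviral protein, Hvcn1 a proton channel of leukocytes and Orm1 an acute-phase plasma protein. Sla, the nearest, had signals of 66.0, 159.5 and 38.1. The median pair hides the range of the 8 members: swimming over nonswimming ran from -0.39 (Ctsk) to 2.26 (Mepe). Chlorella over swimming ran from -3.67 (Mepe) to -0.39 (Dmp1).

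Probe positions are those that the scanner files list. They name no genome build, and none was found in the labels. On chromosome 5 the Dmp1 probe spans 103404282 to 103404341, the Ibsp probe 103501295 to 103501354 and the Mepe probe 103528780 to 103528839. The Bglap probe lies on chromosome 3 from 88497436 to 88497495, and the Ctsk probe on the same chromosome from 95380674 to 95380918, a span of 245 bases where the others span 60. The Mmp13 probe lies on chromosome 9 from 7280046 to 7280105 and the Acp5 probe from 22009367 to 22009426. The Phex probe lies on chromosome X from 151990798 to 151990857 and the Sp7 probe on chromosome 15 from 102343418 to 102343477. The files place the Sost probes on unplaced sequence. Exon positions were not annotated here.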

How the data were processed

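RNA pooled from 10 mice a group (500 ng, Cy3) gave 1 array each, per the labels' protocols. All 3 arrays shared a slide and a scan, per the file headers; position on the slide and group cannot be told apart. The deposited intensity values are background-subtracted, detrended signals with their errors and flags, and per the submitters' processing notes the software was Agilent Feature Extraction 9.5. The authors' deposited value table holds log2 values with an unknown centre, and it entered only through differences between columns.

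Control and outlier-flagged spots were removed, replicate spots averaged, and 41169 probes kept. Of these, 23841, 24857 and 23448 were well above background on the nonswimming, swimming and Chlorella arrays. Each array's 75th percentile was subtracted from its log2 signals, and the brightest probe stood for a gene. RefSeq tables (GRCm38.p6) named 22948 probes by accession, 6658 by symbol and 3109 by older symbol; the other 8454 keep their original names. A call needed a 2-fold ratio between arrays both well above background. Where just 1 array qualified, "at least" marks a bound, set against whichever was larger on the other array: the probe's own signal or the smallest signal that still counted as above background (6.453, 5.777 and 6.263). Where the probe's own signal was larger, as for Fgf23 on the swimming and Sp7 on the nonswimming array, the bound is the plain ratio. Bounds carry no scanner error, so the true fold may be smaller. Other normalizations used limma 3.58.1. The calling step was tested on simulated data for its arithmetic alone, which gives no error rate for differences between mice. Precision is limited by having 1 array a group.

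The 10 genes and 11 lists were chosen with earlier results of these data known. Named genes were the members, listed genes past 2-fold or farthest from 0 in their list, and the 8 nearest to the members' median ratios. Chromosomal neighbours were named by position. Listed genes short of 2-fold or with dim probes, such as Alpl, Tnfrsf11a, Snx10 and Tnfsf11, were picked after their values were seen.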

Additional observations from a re-analysis of the deposited data

How the results depend on the processing

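No paired analysis was possible because each group has 1 array, and no replicate could be left out. There were 248 single-gene values under 10 other settings of scaling, background, filter, flags, probe choice and source. Of these, 239 stayed within the 95% limit of the scanner error. The other 9 all came from normexp, and no gene past 2-fold changed sign. Both filter settings and the mean over probes left each measured member ratio unchanged. Median centring, the percentile over a common probe set, kept flags and the authors' table moved all members of a comparison by the same amount. The 239 are therefore not a count of independent checks. Normexp, whose offset of 50 compresses dim signals, gave medians of 0.84 for swimming over nonswimming and -0.86 for Chlorella over swimming in place of 1.29 and -1.43. In Chlorella over nonswimming it left 1 gene at least 2-fold lower in place of 5. When the 95% limit of the error also had to pass 2-fold, 3 genes in place of 5 were higher in swimming over nonswimming (Mepe, Bglap and Acp5), and 1 in place of 5 was lower in Chlorella over nonswimming (Ibsp). Every other setting kept the member counts within 1.5 times. Over all genes, swimming over nonswimming had 805 higher and 167 lower, against 672 and 276 with median centring (which shifted the overall median by -0.15), 2104 and 1255 with no filter and 386 and 42 with normexp. Chlorella over swimming had 212 and 754, against 310 and 636 (a shift of 0.13), 1233 and 1998, and 51 and 301. Chlorella over nonswimming had 318 and 228, against 1394 and 1266 with no filter and 92 and 57 with normexp. Sost and Sp7 were not compared in the authors' deposited table. Sost and Sp7 lie near the lowest signal well above background, which limits what their values can show.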
